A study of Mus musculus with 12 samples.

Results

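The genes described are 8 components of the cell's sterol-sensing circuit: the transcription factors Srebf1 and Srebf2, the escort protein Scap, the retention proteins Insig1 and Insig2, the proteases Mbtps1 and Mbtps2, and the sterol transfer protein Stard4. They were chosen by symbol, and all 8 were found among the 12339 genes of the count table. RNA was sequenced from 12 libraries of macrophages that thioglycolate had drawn into the peritoneum and that were collected by lavage, 3 libraries in each of 4 groups. The WT chow and WT HFD groups came from wild-type mice on a chow diet or a high fat "Western" diet, and the meKO chow and meKO HFD groups from knockout mice on the same diets. Every group, chow controls included, had received the same AAV8 vector at 8 weeks of age, given to make the mice on the high fat diet hypercholesterolemic, and cells were collected 4 weeks later. The title of the series gives protein kinase C epsilon as the deleted kinase, so meKO is read here as its myeloid knockout (gene Prkce), and the labels name no recombinase line or strain. The labels describe 8 animals per genotype, 4 of each on the high fat diet. They do not say that each library came from a separate animal, so p-values measure the spread between these libraries.

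The products of Srebf1 and Srebf2 are made as precursors held in the membrane of the endoplasmic reticulum, bound to SCAP. When membrane cholesterol is high, SCAP and the INSIG proteins keep the precursors there. When it is low, SCAP carries them in COPII vesicles to the Golgi, where the site-1 protease (Mbtps1) and the site-2 protease (Mbtps2) release the active factor. The active form of SREBP-2 drives genes of cholesterol synthesis and LDL uptake and also its own gene and Insig1, while Srebf1 is also a target of the liver X receptor (LXR), the sensor of oxidised sterols. STARD4 moves cholesterol between membranes and its gene is a target of SREBP-2. In macrophages this circuit works against the cholesterol load that arrives with engulfed lipoproteins.

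The proximal promoters of Srebf2 and Insig1 are shown because both genes are known SREBP targets and the results below turn on them. Each is the 250 bases before the annotated start in RefSeq on GRCm38.p6, plus strand, 5′ to 3′. Srebf2 lies at chr15:82147019-82147268 and Insig1 at chr5:28071162-28071411. Capitals mark motif matches on either strand: TCACCCCA, the core of a sterol regulatory element, in Srebf2, CCAAT (the NF-Y box, here as ATTGG on the strand shown) in both, and CACGTG (the E-box) in Insig1.
Srebf2: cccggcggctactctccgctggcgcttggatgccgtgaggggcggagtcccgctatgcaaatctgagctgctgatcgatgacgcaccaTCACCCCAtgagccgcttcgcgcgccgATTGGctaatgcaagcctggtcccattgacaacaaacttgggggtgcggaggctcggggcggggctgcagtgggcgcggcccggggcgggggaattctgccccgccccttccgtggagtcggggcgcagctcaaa
Insig1: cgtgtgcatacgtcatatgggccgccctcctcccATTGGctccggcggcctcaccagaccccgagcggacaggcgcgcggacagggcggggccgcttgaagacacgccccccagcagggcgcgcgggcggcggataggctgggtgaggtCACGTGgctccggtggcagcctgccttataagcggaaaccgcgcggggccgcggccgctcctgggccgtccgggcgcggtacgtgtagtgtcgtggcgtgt

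In Srebf2 the TCACCCCA match began 162 bases before the start and the ATTGG match 135 bases before it. In Insig1 the ATTGG match began 216 bases and the CACGTG match 101 bases before the start. The search covered windows from 250 bases before to 50 bases after a start, and 7 of the 8 members had such windows, 12 in all. TCACCCCA, which was added after the sequences had been seen, was in 1 of the 12 windows, that of Srebf2, and in 1.56% of the 32851 windows of the table. CCAAT was in 5 of the 12 windows, from 4 members, against 37.4% of all windows. CACGTG was in 3 of the 12, those of Insig1 and the overlapping pair of Scap, against 7.15%. TCACNCCAC, a longer sterol regulatory element in which N is any base, was in none of the 12, against 1.24% of all windows. A match describes letters and is not a binding site.

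The libraries held 25844958 to 37282772 counts, and the members between 53 (Stard4) and 2513 (Insig1) counts per library. Levels are given as CPM, counts-per-million after TMM scaling, edgeR's correction for library composition. WT chow replicates 1 and 2 stood apart: across genes, the Spearman correlation of a library's deviation from the mean with transcript length was 0.64 and 0.68 in them and between -0.47 and 0.14 in the other 10 libraries. This length correlation was -0.04 in WT chow replicate 3 and -0.2 to 0.14 in meKO chow. Every HFD library was below 0, at -0.45 to -0.12 in WT and -0.47 to -0.15 in meKO, so the correlation also differed with the diet. In WT, Prkce was at 2.35 to 4.44 CPM on chow and 2.01 to 2.89 CPM on HFD. In meKO it was at 0.95 to 1.62 CPM on chow and 0.954 to 1.78 CPM on HFD. Its level was lower in every meKO library than in any WT library. The defining macrophage genes were all detected, and the 9 other than Lyz2 summed to 5450 to 6770 CPM over the 12 libraries. Lyz2 was at 69.3 CPM in meKO chow replicate 2, against at least 16300 CPM in every other library, while the other 9 genes summed to 6060 CPM there, within the range of the rest.

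Per kilobase of transcript, the mean level over the 12 libraries was highest for Insig1 (19.4 CPM per kb), followed by Insig2 (13.3), Mbtps1 (12) and Srebf1 (7.16). Mbtps2 (5.12), Scap (3.95), Srebf2 (3.37) and Stard4 (1.15) followed. In WT chow, Insig2 and Mbtps1 were closer than their spread, at 13.2 ± 1.14 and 14.2 ± 2.29 CPM per kb (SD, n = 3). Srebf1, Mbtps2, Srebf2 and Scap likewise formed a run of neighbours there, at 6.89 ± 0.82, 6.32 ± 1.5, 5.81 ± 1.13 and 5.24 ± 0.81 CPM per kb. In WT HFD that run opened up, with Srebf1 at 7.31 ± 1.04 and Srebf2 at 2.07 ± 0.243 CPM per kb. Stard4 was lowest in all 4 groups, from 2.06 ± 0.234 CPM per kb in WT chow to 0.537 ± 0.196 in meKO HFD.

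**Figure D1:**
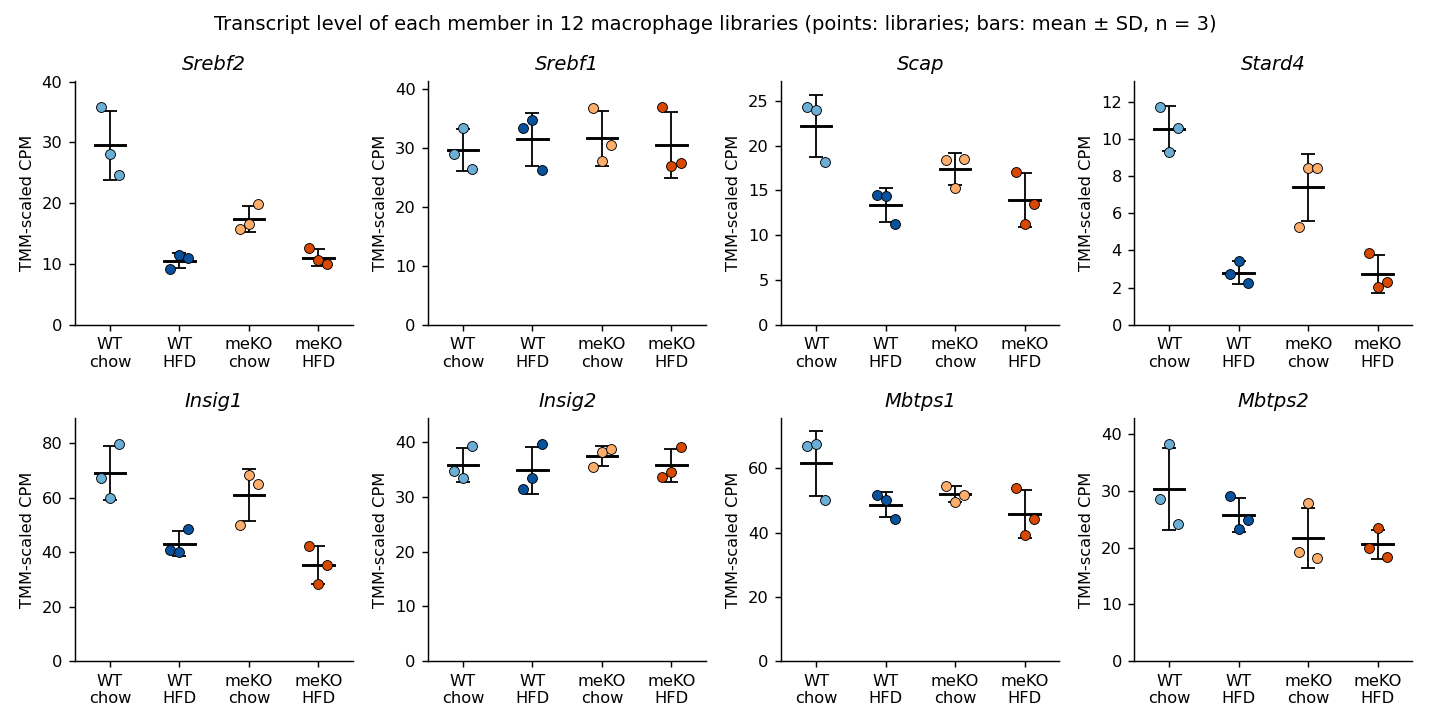
TMM-scaled CPM of each gene (y axis, from 0, a separate scale per panel) by genotype and diet; points are libraries and bars mean ± SD (n = 3). Srebf2 and Stard4 sit highest in WT chow and low in both HFD groups, while Srebf1 and Insig2 overlap in all 4 groups.

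The first comparison asked how the high fat diet altered the circuit in wild-type macrophages. Transcripts of Srebf2, Scap, Insig1 and Stard4 fell, to 35.6%, 60.2%, 62.5% and 26.7% of their chow level in the fit, and no member rose. These 4 of 8 members were called lower at an adjusted p under 0.05 (edgeR's quasi-likelihood test, Benjamini-Hochberg adjustment over all 12339 genes), where 11.8% of all genes were called lower, 9.5% higher and 21.3% in either direction. Of all calls 44.5% were higher, 31.3% when scaled by library totals and 56.5% with a correction for transcript length and GC content. The median log2 fold change of the 8 members was -0.51, against -0.03 over all genes. The same 4 members did not overlap between the diets, a pattern that 19.9% of all genes showed in this direction. Srebf1, Insig2, Mbtps1 and Mbtps2 overlapped between the diets and were not called.

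Srebf2, which encodes the SREBP that governs cholesterol synthesis, was at 35.8, 28.1 and 24.6 CPM in the WT chow libraries. It was at 9.13, 11.5 and 10.9 CPM in the WT HFD libraries. Every chow library lay above every HFD library, with a gap between 24.6 and 11.5 CPM. The log2 fold change was -1.49 ± 0.16 (SE, edgeR adjusted p = 0.000678), and Srebf2 ranked 5 among all genes by p in this comparison. The high value of 35.8 CPM belonged to WT chow replicate 1, a library with the length trend. With WT chow replicates 1 and 2 both left out, the value was -1.23 (edgeR adjusted p = 0.0353). That fit has 1 WT chow library, which is assumed to vary like the other 3 groups, here and wherever both are left out. With a correction for transcript length and GC content it was -1.05 (adjusted p = 0.00294).

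Srebf1, which encodes the SREBP tied to fatty acid synthesis, was at 29, 33.4 and 26.4 CPM in WT chow and at 33.3, 34.7 and 26.3 CPM in WT HFD. Both diets overlapped, and the log2 fold change was 0.09 ± 0.16 (edgeR adjusted p = 0.714). The correction for length and GC content moved it to 0.45 (adjusted p = 0.0158), so that Srebf1 was called higher under that setting alone. Leaving out WT chow replicates 1 and 2 gave 0.25 (adjusted p = 0.728). Srebf1 has 3 annotated start windows in the promoter table, and gene counts do not separate the isoforms that start from them.

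Per kilobase, the ratio of Srebf2 to Srebf1 within a library was 1.05, 0.711 and 0.789 in WT chow and 0.232, 0.281 and 0.35 in WT HFD. The meKO ratios were 0.366, 0.504 and 0.552 on chow and 0.29, 0.333 and 0.308 on HFD. Chow libraries were above HFD libraries in both genotypes, by a narrow margin in meKO. A ratio shows unequal change of its 2 genes and has no scaling between libraries in it. The WT chow mean of 0.85 ± 0.178 (SD, n = 3) was the highest of the groups and its range did not overlap that of meKO chow, at 0.474 ± 0.0966.

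Scap, the escort that binds both SREBPs and senses membrane cholesterol, was at 24.3, 24 and 18.2 CPM in WT chow and at 14.5, 14.4 and 11.2 CPM in WT HFD. Chow and HFD did not overlap. The log2 fold change was -0.73 ± 0.17 (edgeR adjusted p = 0.0183). The chow values were highest in replicates 1 and 2, those with the length trend, and without both of them the change was -0.45 (adjusted p = 0.543). Leaving out WT chow replicate 1 (-0.64, adjusted p = 0.0955) or 2 (-0.66, 0.0753) alone also ended the call, as did leaving out WT HFD replicate 1 (-0.79, 0.0512) or 3 (-0.61, 0.0941), with changes of similar size. The length and GC correction gave -0.36 (adjusted p = 0.0286).

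Insig1, the INSIG whose gene is itself switched on by SREBPs, was at 67.4, 60.1 and 79.8 CPM in WT chow and at 40.9, 40.3 and 48.5 CPM in WT HFD. All chow libraries were above all HFD libraries, and the highest value belonged to WT chow replicate 3, which lacks the length trend. The log2 fold change was -0.68 ± 0.16 (edgeR adjusted p = 0.0191), and it was also -0.68 with the length and GC correction (adjusted p = 0.0196). Without WT chow replicates 1 and 2 it was -0.88 (adjusted p = 0.204). The call also ended without WT chow replicate 1 (-0.68, adjusted p = 0.0844), WT HFD replicate 1 (-0.64, 0.0626) or WT HFD replicate 3 (-0.76, 0.0722), with changes of about the same size.

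Insig2, the paralog that is not under the same SREBP control, was at 34.6, 33.4 and 39.2 CPM in WT chow and at 31.4, 33.4 and 39.6 CPM in WT HFD. Both diets overlapped almost fully, with a log2 fold change of -0.04 ± 0.12 (edgeR adjusted p = 0.833). The per-kilobase ratio of Insig1 to Insig2 was 1.95, 1.8 and 2.04 in WT chow and 1.3, 1.21 and 1.22 in WT HFD. The meKO ratios were 1.42, 1.79 and 1.68 on chow and 1.26, 0.827 and 0.907 on HFD. In each genotype the chow libraries were above the HFD libraries, and the ratio passed below 1 in meKO HFD only, in 2 of its 3 libraries.

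**Figure D2:**
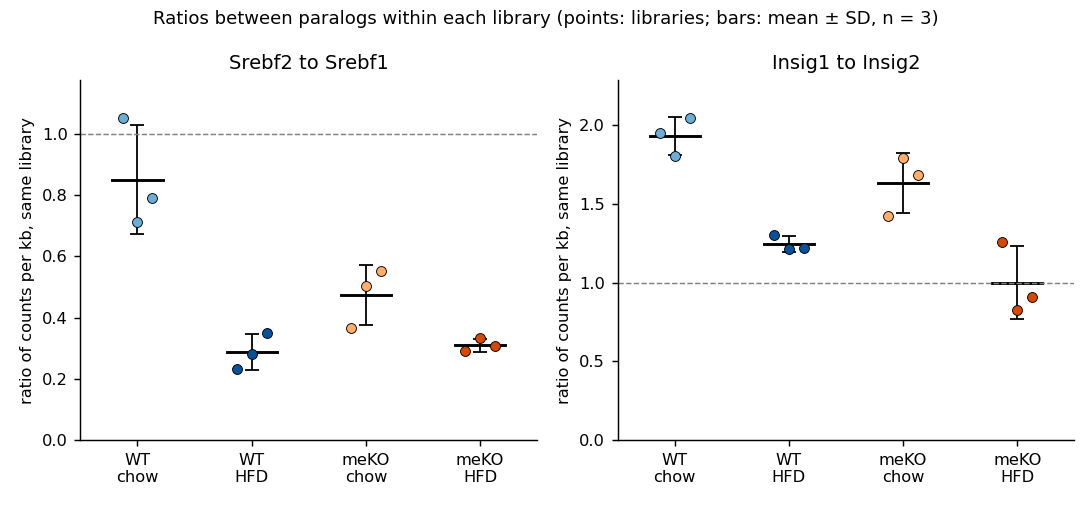
Ratio of Srebf2 to Srebf1 (left) and of Insig1 to Insig2 (right) in each library, from counts per kb of transcript (y axis, no unit, from 0; dashed line at 1); points are libraries and bars mean ± SD (n = 3). Both ratios are lower in HFD than in chow libraries within each genotype, and Srebf2 to Srebf1 is highest in WT chow, at 0.85 ± 0.178.

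Mbtps1, the protease that makes the first cut in the SREBP precursor, was at 66.9, 67.6 and 50 CPM in WT chow and at 51.7, 50.1 and 44.4 CPM in WT HFD. WT chow replicates 1 and 2 were high, and chow replicate 3 fell within the HFD range. The log2 fold change of -0.34 ± 0.14 was not called (edgeR adjusted p = 0.0934, unadjusted p = 0.0312). Mbtps2, the protease of the second cut, was at 28.6, 38.2 and 24.1 CPM in WT chow and at 29, 23.3 and 24.9 CPM in WT HFD. Both diets overlapped, and the log2 fold change was -0.24 ± 0.19 (edgeR adjusted p = 0.368).

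Stard4, the sterol transfer protein, was the least abundant member, at 11.7, 9.28 and 10.6 CPM in WT chow and at 2.75, 3.44 and 2.23 CPM in WT HFD. Every chow library was above every HFD library. The log2 fold change was -1.91 ± 0.26 (edgeR adjusted p = 0.00287, rank 17 by p). With the length and GC correction it was -1.7 (adjusted p = 0.0054), and without WT chow replicates 1 and 2 it was -1.92 (adjusted p = 0.079). Counts of Stard4 in the 6 HFD libraries were 53 to 142, and its SE was the largest among the members in this comparison. The part of the low counts in that error was not tested.

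**Figure D3:**
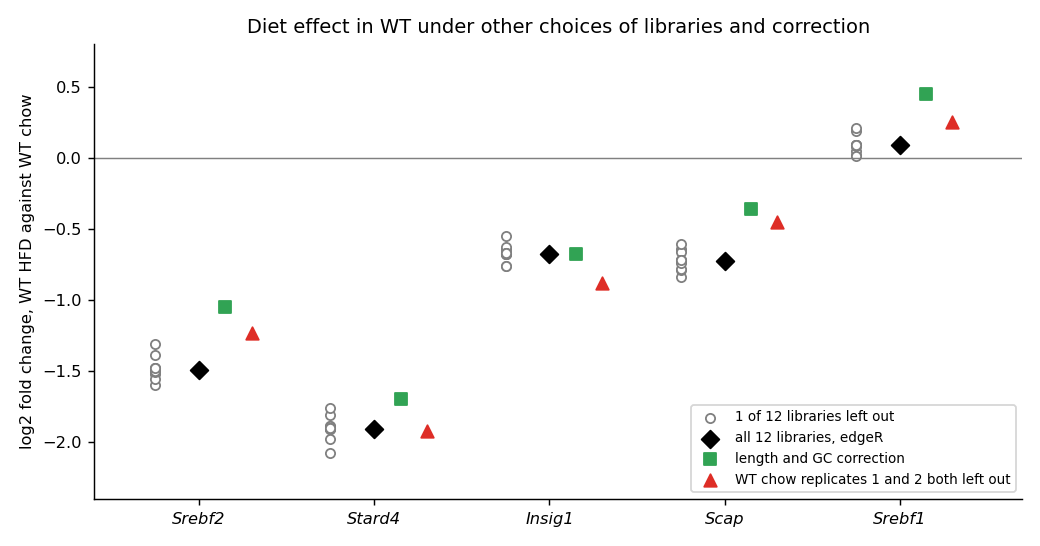
Log2 fold change of 5 members between WT HFD and WT chow (y axis) with all 12 libraries, with each library left out in turn, with a length and GC correction, and with WT chow replicates 1 and 2 both left out. Srebf2, Stard4, Insig1 and Scap stay below 0 in every setting drawn, Scap moves from -0.73 to -0.36 with the correction, and Srebf1 stays above 0.

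Markers of other cells also moved with the diet in WT. The 12 mesothelial and fibroblast genes summed to 52.5 to 93.8 CPM in WT chow and 98.1 to 143 CPM in WT HFD. B cell genes (7 of 8 measured) summed to 112 to 173 CPM and 54.2 to 91.6 CPM, and the 7 dendritic cell genes to 33 to 53 CPM and 19 to 28.5 CPM. Neutrophil genes (7 of 10 measured) summed to 156 to 200 and 141 to 150 CPM, and eosinophil genes (3 of 7, without Epx and Prg2) to 19.9 to 28 and 14.1 to 19 CPM. The 9 macrophage genes other than Lyz2 summed to 6020 to 6140 CPM and 5450 to 6060 CPM, so the diets overlapped there. In bulk RNA, fewer cells of a type and less RNA per cell cannot be told apart, and the part of these cells in the fall of Srebf2, Scap, Insig1 and Stard4 was not tested.

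In meKO macrophages the same diet comparison called none of the 8 members (edgeR), where 0.105% of all genes were called, and 3 members had an unadjusted p under 0.05, as did 15.9% of all genes. The members' median log2 fold change was -0.25, against -0.01 over all genes. Srebf2, Insig1 and Stard4 did not overlap between the diets, each lower on HFD, as did 9.38% of all genes. DESeq2 called these 3 members, where it called 1.84% of all genes. With 1 library left out edgeR called 0 to 2 members, the 2 without meKO HFD replicate 1, where 1.09% of all genes were called.

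In meKO, Stard4 was at 5.28, 8.44 and 8.43 CPM on chow and at 3.88, 2.02 and 2.3 CPM on HFD, with a log2 fold change of -1.41 ± 0.26 (edgeR adjusted p = 0.053). Insig1 was at 50.2, 68.2 and 64.9 CPM on chow and at 42.4, 28.5 and 35.4 CPM on HFD (-0.78 ± 0.16, edgeR adjusted p = 0.0887). Srebf2 was at 15.8, 16.5 and 19.8 CPM on chow and at 12.6, 10.6 and 9.97 CPM on HFD (-0.65 ± 0.16, edgeR adjusted p = 0.14). In all 3 genes meKO HFD replicate 1 was the highest library on HFD and meKO chow replicate 1 the lowest on chow. The length correlation was -0.15 in meKO HFD replicate 1 and -0.47 and -0.4 in replicates 2 and 3. Its part in these values was not tested. With the length and GC correction the changes were -1.35 (Stard4), -0.79 (Insig1) and -0.5 (Srebf2). Without meKO HFD replicate 1, edgeR's adjusted p was 0.00898 for Stard4 and 0.0283 for Insig1, and without meKO chow replicate 1 it was 0.0368 for Stard4. DESeq2 gave adjusted p-values of 0.000109 for Stard4, 0.00247 for Insig1 and 0.0207 for Srebf2.

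Scap in meKO was at 18.4, 15.3 and 18.5 CPM on chow and at 17.1, 11.2 and 13.5 CPM on HFD, and the diets overlapped (-0.32 ± 0.17, edgeR adjusted p = 0.369). Srebf1 (-0.05 ± 0.16), Insig2 (-0.07 ± 0.12), Mbtps1 (-0.18 ± 0.14) and Mbtps2 (-0.08 ± 0.19) had adjusted p-values of 0.528 to 0.896. Srebf1 was at 36.7, 27.7 and 30.4 CPM on chow and 36.9, 27 and 27.4 CPM on HFD, so replicate 1 was the highest on both diets. Insig2 stayed between 33.5 and 39.1 CPM in all 6 meKO libraries. The mesothelial and fibroblast genes summed to 52.6 to 98.2 CPM on chow and 115 to 148 CPM on HFD, and T and NK cell genes (9 of 10) to 18.1 to 18.4 and 26.9 to 32.1 CPM, and their part in these values was not tested.

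Averaged over the genotypes, the diet comparison used 6 libraries per diet. Again Srebf2, Scap, Insig1 and Stard4 were called lower, 4 of 8 members against 15.3% of all genes called lower and 30.2% called in all, and none was called higher. The log2 fold changes were -1.66 ± 0.18 for Stard4 (edgeR adjusted p = 0.000396), -1.07 ± 0.11 for Srebf2 (0.00034), -0.73 ± 0.12 for Insig1 (0.00347) and -0.52 ± 0.12 for Scap (0.0103). The chow libraries include the WT pair with the length trend. With the length and GC correction the values were -1.53, -0.77, -0.74 and -0.27 in the same order. Without WT chow replicates 1 and 2, which leaves 1 WT chow library, they were -1.67, -0.94, -0.84 and -0.38. Over the 22 alternatives Scap passed the threshold under 21, and that fit was the exception. Stard4, Srebf2 and Insig1 had every chow library above every HFD library, which 2.77% of all genes showed in this direction, while Scap overlapped. Mbtps1 was not called (-0.26 ± 0.1, edgeR adjusted p = 0.0644).

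The comparison of genotypes on chow asked what loss of the kinase did to the circuit without the diet. It shares the WT chow libraries, including the pair with the length trend, with the WT diet comparison. No member was called by edgeR, where 0.081% of all genes were called, and 2 members had an unadjusted p under 0.05, as did 19.8% of all genes. The members' median log2 fold change was -0.3 against 0 over all genes. Srebf2 was at 24.6 to 35.8 CPM in WT chow and at 15.8 to 19.8 CPM in meKO chow, with no overlap (log2 fold change -0.77 ± 0.16, edgeR adjusted p = 0.0776, rank 45 by p). Stard4 did not overlap either, at 9.28 to 11.7 CPM in WT and 5.28 to 8.44 CPM in meKO (-0.51 ± 0.24, edgeR adjusted p = 0.26). These were 2 of 8 members, against 8.28% of all genes lower in meKO with no overlap. Lyz2, which encodes a lysozyme of myeloid cells, was lower in meKO, at 69.3 to 21300 CPM on chow against 31200 to 53800 CPM in WT. It was lower on HFD too, at 16300 to 18900 against 30500 to 37700 CPM, and the cause was not tested. The other 9 macrophage genes summed to 6060 to 6770 CPM in meKO chow and 6020 to 6140 CPM in WT chow.

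The Srebf2 difference on chow moved with the choice of libraries. Without WT chow replicate 3, the chow library that lacks the length trend, it was -0.87 (edgeR adjusted p = 0.00434). Without WT chow replicates 1 and 2 it was -0.5 (adjusted p = 1), and with the length and GC correction -0.45 (adjusted p = 0.196). DESeq2 called it, with an adjusted p of 0.00199. Mbtps2 was at 24.1 to 38.2 CPM in WT chow and at 19.2, 27.8 and 18.1 CPM in meKO chow, which overlapped (-0.48 ± 0.19, edgeR adjusted p = 0.192). Scap (-0.35 ± 0.17, adjusted p = 0.269), Mbtps1 (-0.25 ± 0.14, 0.329), Insig1 (-0.18 ± 0.16, 0.534), Srebf1 (0.09, 0.755) and Insig2 (0.06 ± 0.12, 0.773) were not called by edgeR.

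On the high fat diet no member was called between the genotypes. All 8 overlapped, where 10.3% of all genes did not, and none reached an unadjusted p under 0.05, which 4.56% of all genes did. Every edgeR adjusted p was 0.999, where 0.081% of all genes were called, and the members' median log2 fold change was -0.03 against 0.02. Means of Srebf2 were 10.5 ± 1.23 CPM (WT) and 11.1 ± 1.38 CPM (meKO), each over 3 libraries with the SD. Those of Stard4 were 2.81 ± 0.61 and 2.73 ± 1 CPM. Scap averaged 13.4 ± 1.83 and 13.9 ± 3 CPM. The estimates with the greatest size were those of Mbtps2 (-0.33 ± 0.19) and Insig1 (-0.28 ± 0.16).

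**Figure D4:**
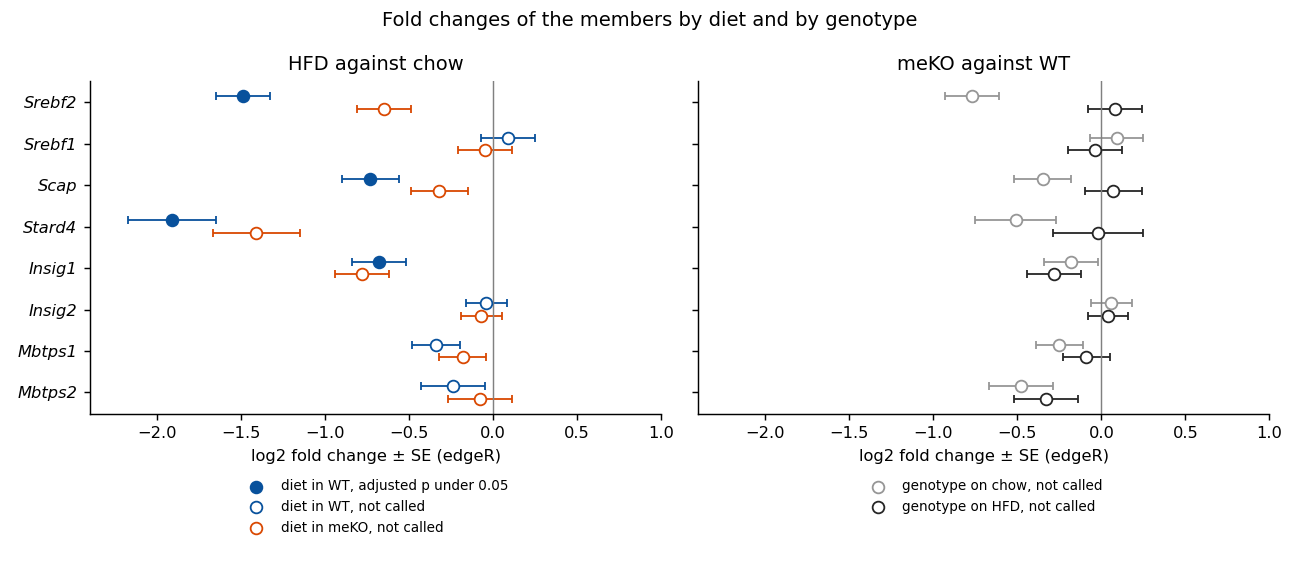
Log2 fold change ± SE from edgeR (x axis) of the 8 members for HFD against chow in each genotype (left) and for meKO against WT on each diet (right); filled points have an adjusted p under 0.05. The filled points are Srebf2, Scap, Stard4 and Insig1 in WT, and the Srebf2 diet change is -1.49 in WT and -0.65 in meKO.

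Whether the diet change differed between the genotypes was tested as an interaction, meKO minus WT. No member was called by edgeR, where 0.0162% of all genes were called, and 1 had an unadjusted p under 0.05, as did 6.13% of all genes. For Srebf2 the difference in log2 fold change was 0.84 ± 0.23 (unadjusted p = 0.00238, edgeR adjusted p = 0.751), a smaller fall in meKO that ranked 39 by p but did not pass the adjustment. With the length and GC correction it was 0.55 (edgeR adjusted p = 0.697), and without WT chow replicates 1 and 2 it was 0.58. Stard4 (0.49 ± 0.36, edgeR adjusted p = 0.815), Scap (0.41 ± 0.24, 0.803) and Insig1 (-0.11 ± 0.23, 0.919) did not pass either. So a diet effect called in WT and not in meKO is not shown to differ between them for any of these genes. Averaged over diets, no member was called between genotypes by edgeR, where 0.17% of all genes were, and 2 had an unadjusted p under 0.05, as did 17.7% of all genes. Srebf2 (-0.34 ± 0.11, edgeR adjusted p = 0.183) and Mbtps2 (-0.4 ± 0.13, edgeR adjusted p = 0.186) were these 2.

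The genes around the circuit were read from 8 lists, beside a background of 21.3% of all genes called in WT on diet, 11.8% lower and 9.5% higher. The list values come from the fit of all 12 libraries alone, which holds the WT chow pair with the length trend. In WT on diet, 12.4% of all genes were called with the length and GC correction and 0.778% without WT HFD replicate 3. Of 20 SREBP-2 target enzymes, those of cholesterol synthesis, 13 were called lower in WT HFD and none higher, with a median log2 fold change of -0.58. Sqle, squalene epoxidase, fell by 1.51 on the log2 scale (edgeR adjusted p = 0.00271), Cyp51, a sterol demethylase, by 1.19 (0.00473) and Lss, which closes the sterol ring, by 0.82 (0.0114). Msmo1 (-0.08) and Nsdhl (0.08), which act on sterol intermediates, were among the 7 not called. Other enzymes of such intermediates differed, with means in WT chow and WT HFD of 46.4 and 30.1 CPM for Sc5d and 51.7 and 52.3 CPM for Ebp. The LDL uptake list (6 of 8 measured) had 2 lower, among them Scarb1, a lipoprotein receptor (-0.73 ± 0.16, edgeR adjusted p = 0.0134), and 1 higher, Mylip, a ubiquitin ligase (0.48 ± 0.14, 0.0302).

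SREBP-1 target enzymes (10 of 14 measured) split, with 4 lower and 2 higher in WT HFD and a median of -0.29. Fads1, a fatty acid desaturase (-1.74), Fasn, fatty acid synthase (-1.25), Elovl6, an elongase (-1.16), and Acly, which makes acetyl-CoA (-0.64), fell. The desaturases Scd1 (1.21 ± 0.15, edgeR adjusted p = 0.00207) and Scd2 (1.2 ± 0.22, 0.01) rose. Of the 10 genes for LXR and its targets, a list that includes Srebf1 and shares Mylip with LDL uptake, 5 rose and 1 fell (median 0.39). The cholesterol exporters Abca1 (0.76) and Abcg1 (0.55), the phospholipid enzyme Lpcat3 (0.67), the receptor Nr1h3 (0.59) and Mylip rose, and the partner receptor Rxra fell by 0.91, while Srebf1 itself was not called.

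Of 14 measured partners in retention and degradation in the endoplasmic reticulum, 1 was called, Tmub1 (0.63 ± 0.18, edgeR adjusted p = 0.0285), and the median was -0.09. That share was below the 21.3% of all genes called. Of 10 COPII coat genes, 4 were lower (Sec24b by -0.85, Sec24c, Sec24d and Sec31a) and 2 higher (Sec13 by 0.33 and the GTPase gene Sar1b by 0.43), with a median of -0.28. In meKO the diet changes of these genes were -0.1 (Sec24b), -0.04 (Sec24c), -0.14 (Sec24d), -0.01 (Sec31a), -0.03 (Sec13) and 0.24 (Sar1b), none called. Between the genotypes on chow, Sec24b was lower by 0.62 and Sec24c by 0.5 in meKO, and neither was called. Of 12 nuclear SREBP cofactors and turnover genes, 4 were lower, the acetyltransferase gene Ep300 (-0.75), the factor gene Sp1 (-0.64), the Mediator subunit gene Med15 (-0.55) and Nfya, an NF-Y subunit gene (-0.37), with a median of -0.31. Among 12 measured sterol transport and storage genes, Osbp, a sterol exchanger (-0.71), and Soat1, which esterifies cholesterol (-0.44), fell, Osbpl9 rose (0.27), and the median was 0.01. The share called in this last list was near the 21.3% of all genes.

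In meKO, edgeR called 1 gene of all these lists on diet, Scd1 (1.53, adjusted p = 0.002). The median log2 fold change in meKO was -0.37 for the SREBP-2 targets, -0.11 for LDL uptake and 0.21 for the LXR list. None of the 8 lists had a gene called between the genotypes on either diet or in the interaction.

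**Figure D5:**
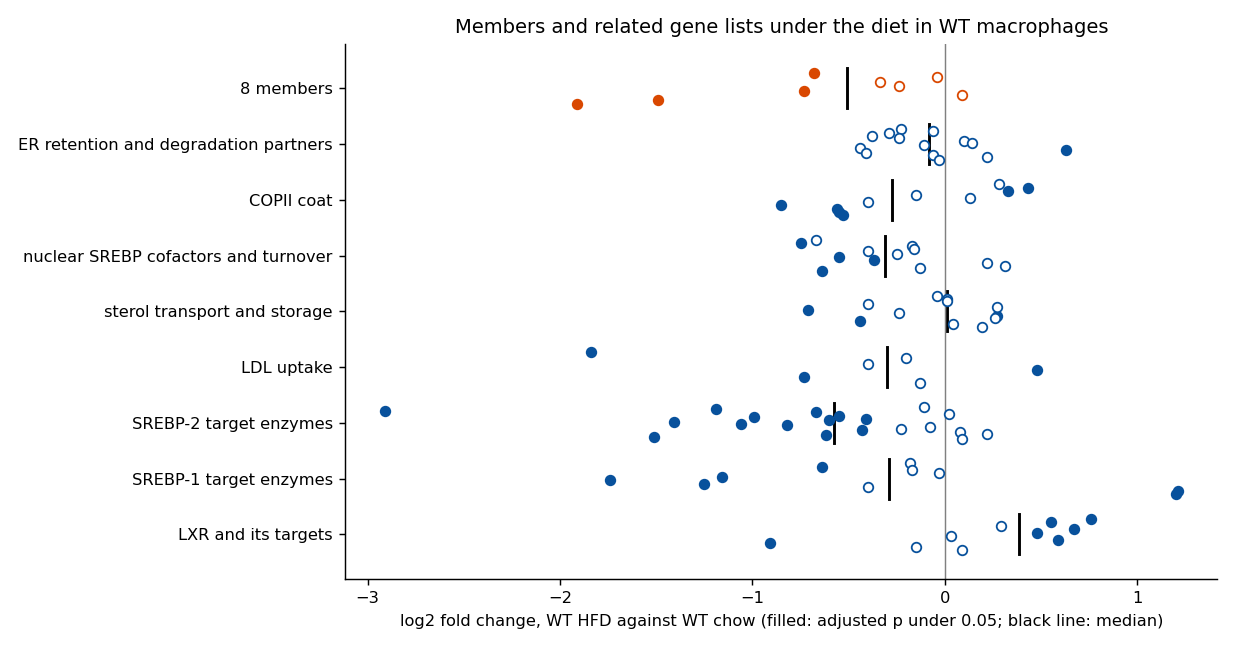
Log2 fold change between WT HFD and WT chow (x axis) of the 8 members and of the genes of 8 lists (rows, points are genes, filled where the edgeR adjusted p is under 0.05, black line the median). The SREBP-2 targets have the lowest median of the lists (-0.58, 13 of 20 called lower), near the members' median of -0.51. The median of the LXR list is above 0 (0.39), with 5 of its 10 genes called higher and 1 lower.

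Likeness was measured as Pearson's r of log2 CPM over the 12 libraries, against the 11499 genes that averaged 1 CPM or more, and is a description, since the libraries share the diet groups and the length trend. Among the 5 genes most like Srebf2 were Fgd2 (0.971), Safb2 (0.964), Dynll2 (0.964) and Szrd1 (0.962). Among the members Stard4 was most like Srebf2 (0.93, rank 52 of these genes), then Scap (0.88, rank 366) and Insig1 (0.81, rank 1029). Mbtps1 was at 0.76 (rank 1552), Mbtps2 at 0.39, Insig2 at 0.1 and Srebf1 at -0.06. Among the 5 most like Stard4 were Cd163 (0.966), Slc19a1 (0.963), Mmab (0.962) and Lss (0.961). Among the 5 most like Insig1 were 4632415L05Rik (0.936), Mks1 (0.923), Lss (0.918) and Cln6 (0.917). Srebf1 followed another set, led by Plod3 (0.928), Fiz1 (0.884), Irf5 (0.881), Acap3 (0.876) and Atmin (0.874), none of which was among the 5 most like Srebf2, Stard4 or Insig1.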

How the data were processed

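The values are whole-number read counts per gene that the authors deposited in 1 table. The submitters' processing notes name the build mm10 and DESeq2. The aligner, the counter and the strand setting are not given in the sources used here, and per the labels' protocols RNA was taken with Trizol and libraries made with TruSeq. Without a stated strand setting, reads of overlapping genes may be shared.

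From the counts, edgeR 4.0.16 (R 4.3.3) fitted all 12 libraries of the 4 groups in 1 quasi-likelihood model after TMM scaling. Its filter kept all 12339 genes, tests were adjusted by Benjamini-Hochberg over these, and genes were called at an adjusted p under 0.05. Every gene of the deposited counts had at least 0.481 CPM in 6 or more libraries. Shares of all genes, and the fit with no filter, therefore hold no gene below that level. The script was tested on simulated data. Depth was 25844958 to 37282772 counts per library, and genes with no symbol (186, holding 0.44% of counts) were kept in the fit. The 3 libraries of a group differed beyond sampling noise (chi-square per degree of freedom 16.9 to 110).

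The members, lists and tests were chosen with earlier results of these data known. Named genes are the 8 members, the genes of the 8 lists and the 5 genes most like a member, some of which are not reported here. Alternatives, 23 in all (22 for the interaction and the averages), were DESeq2 1.42.0, limma 3.58.1 (voom) with and without quality weights, non-robust dispersions, only the 2 groups compared, scaling by library totals or median-of-ratios factors, at least 10 counts in every library, no filter (the same fit, since the filter kept all genes), a length and GC correction (mgcv 1.9.3, lengths for 93.5% of genes), each library left out, and, chosen after seeing the data, WT chow replicates 1 and 2 both left out. Promoter windows came from RefSeq on GRCm38.p6.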

Additional observations from a re-analysis of the deposited data

How the results depend on the processing

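In WT, the fall of Srebf2 on the diet passed the threshold under all 23 alternatives, 1 of which has a lone WT chow library assumed to vary like the other groups (log2 fold change -1.65 to -1.05, adjusted p 4.32e-14 to 0.0353), that of Stard4 under 22, of Insig1 under 19 and of Scap under 18. The number of members called there was 4, where 21.3% of all genes were called. It was 5 with quality weights (52%) and 5 with the length and GC correction (12.4%), 1 of them higher. With 1 library left out it was 2 to 5, with 2 without WT HFD replicate 3 (0.778%) and 5 without WT chow replicate 3 (39.9%). Fewer than 4 were called with WT chow replicates 1 and 2 both left out, which leaves 1 WT chow library. In meKO it was 0, 3 with DESeq2 (1.84% of all genes called) and 3 with quality weights (3.23%). It was 2 with the length and GC correction (0.421%) and 0 to 2 with 1 library left out. The 2 came without meKO HFD replicate 1 (1.09%). Between genotypes on chow it was 0, 1 with DESeq2 (4.79% of all genes called) and 5 with quality weights (32.8%). With 1 library left out it was 0 to 2, the 2 without WT chow replicate 3 (20.6%). The interaction called 1 member with quality weights (Srebf2, 0.92, adjusted p = 0.0425), where 2.39% of all genes were called. The genotype comparison over both diets called 3 of 8 members with quality weights, near the share of all genes called (31.1%). With 1 library left out it called 0 to 2, the 2 without WT chow replicate 3 (11.3% of all genes). The causes were not tested. Some values that were not called changed sign. Without both WT chow replicates these were Mbtps2 (0.09 from -0.24, WT diet), Insig2 (-0.07) and Mbtps1 (0.05 from -0.25) between genotypes on chow and Insig1 (0.1, interaction). With library totals they were Srebf1 (0, WT diet) and Insig2 (-0.01, genotype on chow). With the length and GC correction they were Srebf1 (0.1, meKO diet) and Stard4 (0.03, genotype on HFD), and with quality weights Insig2 (0.02, meKO diet) and Scap (-0.01, genotype on HFD). With 1 library left out, values crossed 0 for Insig2 (-0.13 to 0.04, WT diet), Srebf1 (-0.21 to 0.06) and Mbtps2 (-0.19 to 0.13) in the meKO diet comparison, Srebf1 on chow (-0.02 to 0.2) and Insig1 in the interaction (-0.26 to 0.03). Between genotypes on HFD the ranges were -0.21 to 0.03 for Srebf1, -0.03 to 0.15 for Srebf2, -0.11 to 0.19 for Scap, -0.04 to 0.13 for Insig2, -0.22 to 0 for Mbtps1 and -0.37 to 0.15 for Stard4. Over all genes, the WT diet comparison called 2634, 96 without WT HFD replicate 3, 4921 without WT chow replicate 3, 15 without both WT chow replicates, 6411 with quality weights and 1525 with the length and GC correction. The share of calls that were higher was 44.5%, 31.3% with library totals and 56.5% with the length and GC correction. The other totals ranged from 1 to 398 for the meKO diet (13 with all libraries), 2 to 4047 for genotype on chow (10, and 2543 without WT chow replicate 3), 3 to 128 for genotype on HFD (10) and 1 to 295 for the interaction (2). Averaged over genotypes the diet called 3721 (202 to 6298; 49.3% higher, 38.1% with library totals), and averaged over diets the genotype called 21 (8 to 3835). No paired analysis was possible because the labels carry only library numbers, so replicate numbers name samples and pair none.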
